A study of Bos taurus with 60 samples.

Results

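The miR-378 family in bovine liver was followed in the small RNA of 60 steers. Its members are bta-miR-378, bta-miR-378b, bta-miR-378c and bta-miR-378d, which are 4 of the 1030 known mature miRNAs counted. They were taken from the count tables by name. MicroRNAs are short RNAs that lower the output of the messenger RNAs they pair with, and the bases near their 5′ end, called the seed, do most of the pairing. In mammals a miR-378 hairpin lies within PPARGC1B, the gene of PGC-1beta, a transcriptional coactivator that raises mitochondrial and oxidative metabolism. In mice, miR-378 has been tied to mitochondrial energy use and to lipid handling in the liver.

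The mature sequences show how closely the members resemble each other and where they differ, with the seed (bases 2 to 8) in capitals. They are those the authors took from miRBase for bovine miRNAs, written 5′ to 3′.
bta-miR-378: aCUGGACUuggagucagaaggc
bta-miR-378c: aCUGGACUuggagucagaagu
bta-miR-378b: aCUUGACUuggagucagaaggc
bta-miR-378d: cUGGACUUggagucagaagacc
Only bta-miR-378 and bta-miR-378c share a seed, and no other of the 588 mature sequences listed carries the seed of any member. In each pair below the base of bta-miR-378 comes first, and positions count from 1 at its 5′ end. bta-miR-378b differs by G4U, which lies within the seed. bta-miR-378c differs by G21U and is 1 base shorter. bta-miR-378d starts 1 base later, which shifts its seed, and differs over the aligned bases by G21A. All 4 share a run of 16 bases, gacuuggagucagaag. Since the aligned bases of bta-miR-378 and each smaller member differ at 1 position, a read with 1 changed base could be counted for another member. How many reads that affected was not tested.

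The link to the PGC-1beta gene held for 1 of the 5 precursors of the family. In the RefSeq annotation of ARS-UCD2.0, which is a later assembly than the UMD3.1 build that the authors used, the 5 precursors lie on 5 chromosomes. The hairpin bta-mir-378-1 is within PPARGC1B, and bta-mir-378-2 is within CALCR, the calcitonin receptor gene. The hairpin of bta-miR-378c is within ZNF521, which encodes a zinc finger protein, and that of bta-miR-378d is within MSI2, which encodes an RNA-binding protein. No gene spans the hairpin of bta-miR-378b, and the nearest protein-coding gene is NECTIN1, which encodes a cell adhesion protein.

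The steers were Angus, Charolais and Kinsella Composite (KC), a crossbred herd built from Angus, Charolais and hybrid lines, with 20 steers and 1 liver library per steer in each breed. All were castrated males reared at one ranch on the same finishing diet of barley grain, barley silage and rumensin. Residual feed intake (RFI) is the feed an animal eats beyond what its weight and growth predict, so that low-RFI steers are the efficient ones. The labels name 6 low-RFI and 6 high-RFI steers in each breed and leave 8 without an RFI group. By the study's methods, all 20 per breed came from the ends of the RFI range, and the 12 with a label were picked in part because their miRNA profiles resembled those of the rest of the breed. KC steers were slaughtered at a younger mean age than the others, so that breed and age cannot be told apart here. The study sequenced the libraries in several pools, which the labels do not give. Whether pool and breed were tied is thus unknown. Steers of a breed shared sires, with 7 sires in Angus, 5 in Charolais and 11 in KC, where 1 steer carries a sire code of another form that was counted as a sire.

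The libraries were shallowest in Angus and deepest in KC. After the counts of a miRNA from several precursors were averaged, the totals ran from 1930859 to 6759381 per steer, with a median of 3720336 for Angus, 4405876 for Charolais and 5547018 for KC. A count of 3 then corresponds to 0.444 to 1.55 CPM (the averaged count of a miRNA per 1000000 counts of known miRNAs in that library), and every member had counts in each steer. This floor is a fixed count that allows for counting error alone. It leaves out the error from PCR copies, which are not independent molecules. The 5 hepatocyte marker miRNAs (bta-miR-122, bta-miR-192, bta-miR-194, bta-miR-885 and bta-miR-148a) summed to 254451 to 420606 CPM. Most of that was bta-miR-192 and bta-miR-148a, at means of 233739 and 125476 CPM, while bta-miR-122 averaged 8109 CPM and bta-miR-885 37.5 CPM. No reference level was set, so the sum does not test the tissue label. Of muscle, where miR-378 is also abundant, the 7 marker miRNAs summed to 14.3 to 63.1 CPM. They were led by bta-miR-133a (mean 35.3 CPM, 0 steers at 0 counts), bta-miR-1 (2.14 CPM, 0 steers) and bta-miR-499 (1.26 CPM, 2 steers). bta-miR-206 had 0 counts in 57 steers and bta-miR-208a in 58.

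One library stood apart from the rest of its breed. It came from the seventh Charolais steer without an RFI label and had the lowest bta-miR-378 of all 60 steers, at 388 CPM against 626 to 892 CPM in the other 19 Charolais steers. Its library total of 6019099 counts was the highest in Charolais, where the median was 4405876. In the same library the hepatocyte miRNAs summed to 254451 CPM, below the 337974 to 420606 CPM of the other 19, and bta-miR-143, a miRNA of mesenchymal cells, stood at 256622 CPM, above their 137786 to 189918 CPM. The stellate and mesenchymal marker miRNAs summed to 257224 CPM, nearly all of it bta-miR-143. That sum thus does not show whether the other markers of the list were raised too. The largest of those was bta-miR-145, at a mean of 320 CPM over all 60 steers. Also below the other 19 were the leukocyte (2205 CPM against 3301.5 to 5100), endothelial (10497 against 13826 to 21918) and biliary (150 against 154 to 335) sums. The erythroid and muscle sums lay within the range of the other 19. Fewer cells of a type and less of a miRNA per cell cannot be told apart in bulk tissue. The part of this, or of the depth of the library, in the low miR-378 was not tested.

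Nearly all of the family's counts belonged to bta-miR-378. The 4 members summed to 771 ± 128 CPM (SD, n = 60), of which bta-miR-378 made up 92.7% ± 0.610, bta-miR-378c 4.53% ± 0.515, bta-miR-378b 2.29% ± 0.355 and bta-miR-378d 0.506% ± 0.117. This order held in 60 of 60 steers. All are 21 or 22 bases long, and no length correction was made. Whether the library steps captured the members equally was not tested. By mean CPM the members ranked 52nd, 150th, 184th and 265th of the 1030 miRNAs. The mean of bta-miR-378 was 20.5 times that of bta-miR-378c, 40.3 times that of bta-miR-378b and 184 times that of bta-miR-378d.

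**Figure D1:**
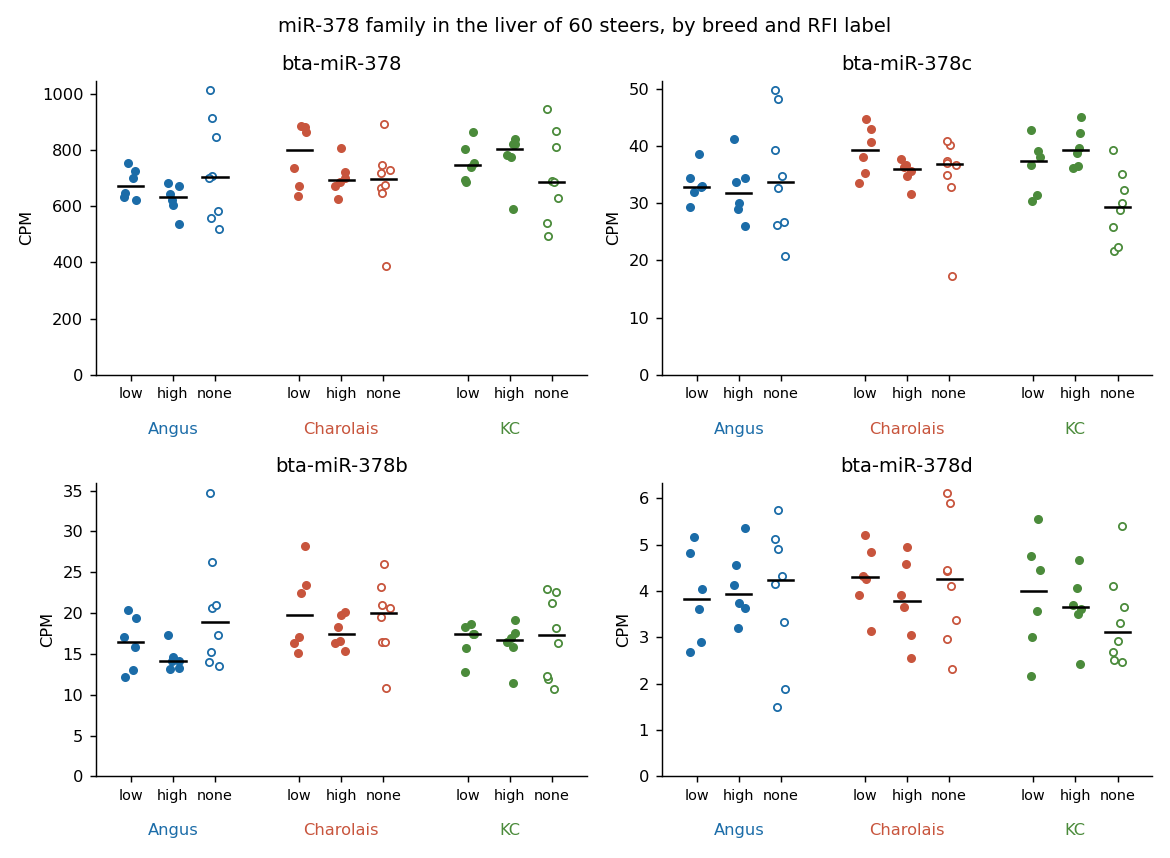
CPM of the 4 members in each of the 60 steers, by breed (colour) and RFI label (low, high or none; open points have no label), with the group median as a bar and every axis starting at 0. The low-RFI and high-RFI points overlap in each breed and for each member. For bta-miR-378 the steers without a label are more widely spread than either RFI group in each breed.

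Levels of bta-miR-378 overlapped between the 3 breeds. It ran from 519 to 1015 CPM in Angus with a median of 660 CPM, from 388 to 892 CPM in Charolais with a median of 709 CPM, and from 495 to 947 CPM in KC with a median of 763 CPM. The ranges overlap over most of their width. bta-miR-378c, which has the same seed, ran from 20.8 to 49.7 CPM in Angus (median 32.9), from 17.3 to 44.8 CPM in Charolais (median 36.7) and from 21.6 to 45.1 CPM in KC (median 36.3). bta-miR-378b ran from 12.2 to 34.8 CPM in Angus (median 15.5), from 10.8 to 28.2 CPM in Charolais (median 18.9) and from 10.7 to 22.97 CPM in KC (median 17.2). For bta-miR-378d, the least abundant, the ranges were 1.49 to 5.74 CPM in Angus, 2.33 to 6.10 CPM in Charolais and 2.17 to 5.55 CPM in KC.

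The spread between steers of a breed was set beside the spread that counting alone gives. The coefficient of variation of bta-miR-378 was 15.6% to 18.03% within breeds, which is 8.67 to 9.66 times the counting spread. For bta-miR-378c and bta-miR-378b it was 15.3% to 31.2%, or 1.87 to 2.56 times the counting spread. bta-miR-378d varied by 25.0% to 28.8%, only 1.02 to 1.18 times the counting spread, so that differences in bta-miR-378d between steers were hardly detectable at this depth. In the edgeR fit of all 60 steers the biological coefficient of variation of bta-miR-378 was 0.135, against a median of 0.227 over the 443 miRNAs tested.

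Steers without an RFI label were the more variable. The SD of bta-miR-378 was 154 CPM over the 24 steers without a label and 89.9 CPM over the 36 with one, around means of 707 and 720 CPM. Both the lowest value, in the Charolais steer described above, and the highest, 1015 CPM in an Angus steer, came from steers without a label. That Angus steer was also the highest of all 60 for bta-miR-378b at 34.8 CPM and for bta-miR-378c at 49.7 CPM. In KC, bta-miR-378c averaged 29.4 ± 6.15 CPM in the 8 steers without a label and 38.1 ± 4.32 CPM in the 12 with one. Since the labelled steers were chosen in part by their miRNA profiles, these differences are given without a test.

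The first comparison was between breeds. No member passed an adjusted p-value of 0.05 (edgeR, quasi-likelihood test, 60 steers) in any of the 3 pairs of breeds. Over all 443 miRNAs tested, 1.35% passed for Charolais against Angus, 10.8% for KC against Angus and 16.3% for KC against Charolais. Of the 12 values of the members, 1 had an unadjusted p-value under 0.05, as with limma-voom, and with DESeq2 3 did, of which 1 passed after adjustment. bta-miR-378 was 1.08-fold in KC relative to Angus (95% interval 0.999 to 1.18, adjusted p = 0.207), 1.06-fold in Charolais relative to Angus (0.981 to 1.156) and 1.02-fold in KC relative to Charolais (0.938 to 1.11). The intervals of bta-miR-378c stayed within 0.854 to 1.22-fold for the 3 pairs, and those of bta-miR-378d within 0.744 to 1.27-fold.

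bta-miR-378b came closest to a breed difference in level. It was 0.862-fold in KC relative to Charolais, with an interval of 0.760 to 0.978 and an adjusted p of 0.105 by edgeR. With DESeq2 the same difference passed, at an adjusted p of 0.0366. For bta-miR-378, the choice of steers decided the call. In the 36 steers with an RFI label it was higher in KC than in Angus by 0.20 ± 0.063 (SE) on the log2 scale, at an adjusted p of 0.0458 by edgeR, while in the 24 without a label the estimate was -0.062 ± 0.11. In the same 36 steers the differences between Charolais and Angus were larger than over all 60, at 0.23 ± 0.063 for bta-miR-378 (adjusted p = 0.0789, edgeR), 0.35 ± 0.10 for bta-miR-378b (0.0838) and 0.23 ± 0.077 for bta-miR-378c (0.0863). The labelled steers are those picked in part by their miRNA profiles.

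**Figure D2:**
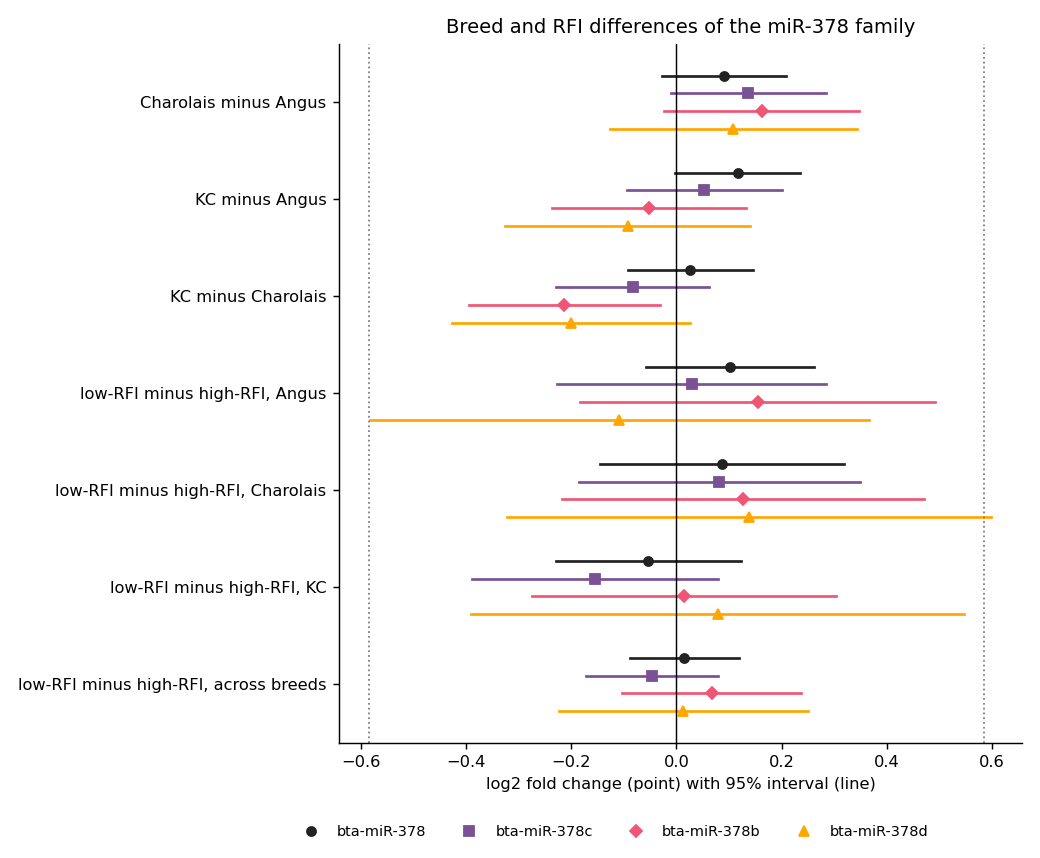
Log2 fold change of each member (point) with its 95% interval (line) from the edgeR fits, for 3 pairs of breeds and for low-RFI minus high-RFI steers in each breed and across breeds; dotted lines mark a fold change of 1.5 in either direction. The interval of bta-miR-378b between KC and Charolais, from -0.40 to -0.032, is the only one that leaves out 0.

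Within the family, the ratio of bta-miR-378b to bta-miR-378 differed between KC and Charolais. The sizes were close, at 0.843-fold for this ratio and 0.862-fold for the level of bta-miR-378b. Before adjustment, p was 0.00022 by permutation for the ratio and 0.0218 by edgeR for the level. The adjusted values are less alike, since they cover 9 ratio tests and 443 miRNAs. To compare the balance of the members, the count of each smaller member was divided by that of bta-miR-378 in the same library, so that the library total cancels out. The count of bta-miR-378b ran from 1.56% to 3.09% of that of bta-miR-378 in KC, with a median of 2.28%, and from 2.12% to 3.24% in Charolais, with a median of 2.62%. In Angus it ran from 1.87% to 3.42%, with a median of 2.51%. The groups overlap, with the KC steers lying lowest. On the log2 scale the ratio was lower in KC than in Charolais by 0.25 ± 0.060 (SE), which is 0.843-fold with a 95% interval of 0.777 to 0.914. The permutation test (100000 resamples, two-sided) gave p = 0.00022, or 0.00198 after adjustment over the 9 ratio comparisons between breeds.

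None of the other 8 ratio comparisons between breeds passed. bta-miR-378c stood at 4.69% ± 0.679 of bta-miR-378 in KC, 5.07% ± 0.485 in Charolais and 4.91% ± 0.519 in Angus (SD, n = 20 each), with an adjusted permutation p of 0.0802 for KC against Charolais. bta-miR-378d stood at 0.491% ± 0.109 in KC, 0.575% ± 0.124 in Charolais and 0.573% ± 0.137 in Angus. Its log2 ratio was lower in KC than in Charolais by 0.24 ± 0.10, with an adjusted permutation p of 0.0802, and lower than in Angus by 0.23 ± 0.11, with 0.085. For bta-miR-378b in KC against Angus, the difference was -0.16 ± 0.072 and the adjusted permutation p was again 0.0802.

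**Figure D3:**
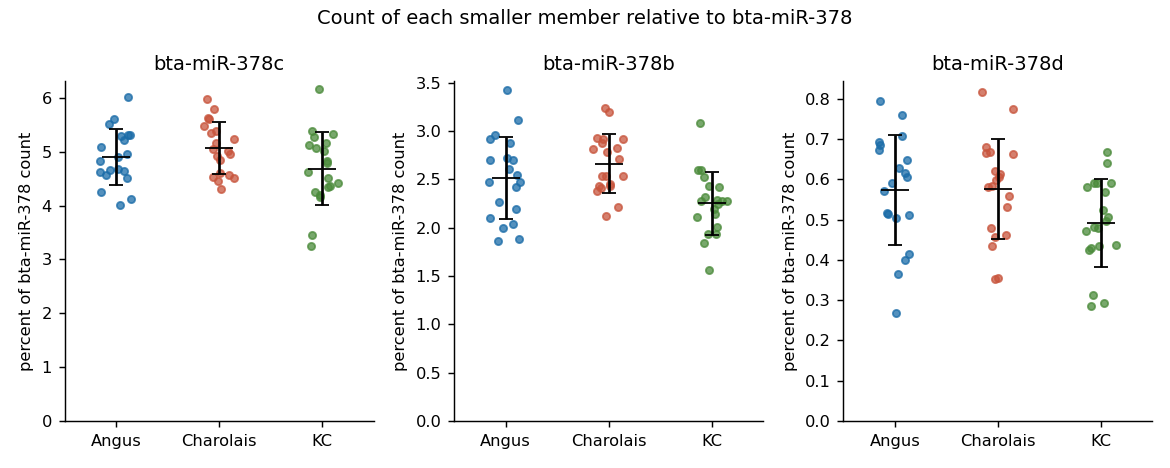
Count of bta-miR-378c, bta-miR-378b and bta-miR-378d as a percent of the bta-miR-378 count in the same library, 1 point per steer with the mean and SD of the 20 steers of each breed in black. The mean for bta-miR-378b is 2.25% in KC and 2.66% in Charolais, with overlapping points.

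The ratio of bta-miR-378b moved with depth and was examined for shared sires. Within breeds, its log2 value had a Pearson r with the log2 library total of -0.32 for Angus, -0.56 for Charolais and -0.21 for KC (n = 20 each). The ratios of the other members did not move with depth in one direction, at -0.19, 0.11 and 0.42 for bta-miR-378c and -0.22, 0.40 and 0.55 for bta-miR-378d in the same order of breeds. The KC libraries were the deepest. With the log2 library total as a term, the difference between KC and Charolais was -0.18 with an adjusted permutation p of 0.0267, and the ratios of bta-miR-378c and bta-miR-378d passed as well, at -0.17 and -0.38. With 1 mean value per sire, 11 in KC and 5 in Charolais, the difference of bta-miR-378b was -0.25, with an adjusted p of 0.0288 by an exact permutation test. Without the KC steer whose sire code has another form it was -0.26, with an adjusted p of 0.033 by the same exact test. Among the steers without an RFI label the size was the same, -0.24, but the adjusted p was 0.103 (exact permutation test, 8 steers against 8). These settings were added after the data were seen.

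bta-miR-378 is listed under both of its precursors, and the counts under them were not equal. The count under bta-mir-378-2, the hairpin within CALCR, was 1522 to 5579, and that under bta-mir-378-1, the hairpin within PPARGC1B, was 1186 to 4339. The former was larger in 60 of 60 steers, by 1.34 ± 0.031 times (SD, n = 60, range 1.28 to 1.42). The means were 1.33 in Angus, 1.35 in Charolais and 1.32 in KC. Of the 20 miRNAs with 2 precursors and a mean count of at least 100, the median ratio of the larger to the smaller total was 1.003, and 2 of the 20, bta-miR-378 included, had a ratio as large. A read that matches both hairpins can be counted under each, so the counts do not give the output of either gene.

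**Figure D4:**
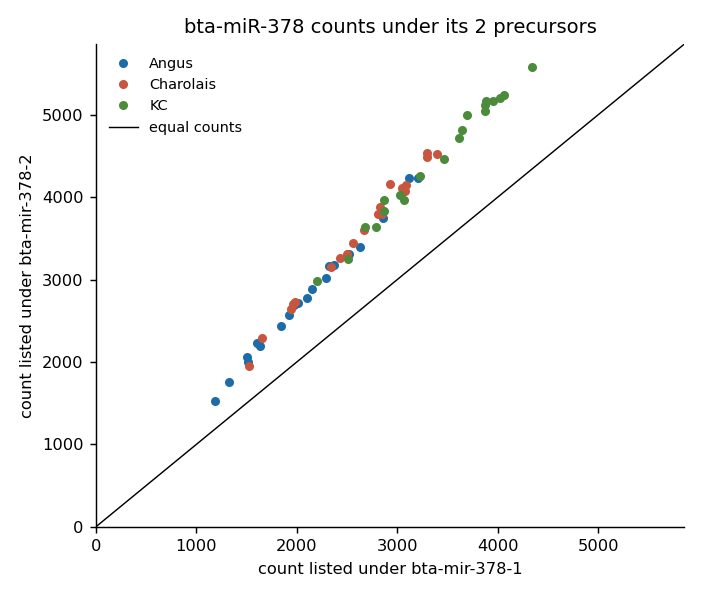
Count of bta-miR-378 listed under bta-mir-378-1 (horizontal) and bta-mir-378-2 (vertical) in each steer, coloured by breed, with both axes starting at 0 and a line of equal counts. Every steer lies above the line, at 1.28 to 1.42 times the count under bta-mir-378-1.

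The study's main question was whether liver miRNAs differ between efficient and inefficient steers. In low-RFI Angus steers bta-miR-378 ran from 622 to 753 CPM (median 673), and in high-RFI Angus steers from 539 to 683 CPM (median 633). In Charolais it ran from 637 to 887 CPM (median 801) in low-RFI and from 626 to 807 CPM (median 693) in high-RFI steers. In KC it ran from 688 to 866 CPM (median 746) in low-RFI and from 592 to 838 CPM (median 803) in high-RFI steers. The 2 groups overlap in each breed, and the low-RFI median is the higher one in Angus and Charolais and the lower one in KC.

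The smaller members overlapped between the RFI groups as well. bta-miR-378c ran from 29.4 to 38.7 CPM in low-RFI and from 26.0 to 41.1 CPM in high-RFI Angus steers, from 33.6 to 44.8 CPM and 31.7 to 37.8 CPM in Charolais, and from 30.4 to 42.8 CPM and 36.2 to 45.1 CPM in KC. bta-miR-378b ran from 12.2 to 20.4 CPM in low-RFI and from 13.2 to 17.4 CPM in high-RFI Angus steers, from 15.1 to 28.2 CPM and 15.4 to 20.1 CPM in Charolais, and from 12.8 to 18.6 CPM and 11.4 to 19.1 CPM in KC. bta-miR-378d stayed between 2.17 and 5.55 CPM in all 36 labelled steers. Of the 12 pairs of RFI groups, 1 for each member and breed, 12 overlapped, and the mean of the low-RFI steers was the higher one in 9.

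No member was called between RFI groups in any breed, where a call needed both a fold change above 1.5 and p under 0.05 before adjustment (edgeR, quasi-likelihood test, 6 against 6). Over all miRNAs tested, 2.41% were called for Angus, 1.88% for Charolais and 1.82% for KC. Of the 12 values of the members none had an unadjusted p-value under 0.05 by edgeR, limma-voom or DESeq2, and the smallest by edgeR was 0.178. Exact two-sided permutation tests gave p = 0.0952 to 0.831, where the smallest p the design allows is 0.00216. The 95% intervals of the fold change of bta-miR-378 were 0.961 to 1.199 in Angus, 0.905 to 1.25 in Charolais and 0.853 to 1.09 in KC, so a 1.5-fold difference lay outside them. For bta-miR-378d they were wider, at 0.668 to 1.29 in Angus, 0.799 to 1.51 in Charolais and 0.762 to 1.46 in KC. These p-values measure the spread between steers, some of which are half-sibs. Sires were unevenly spread over the RFI groups, and in Charolais the low-RFI and high-RFI steers came largely from different sires. RFI group and sire thus cannot be fully told apart here.

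Across the breeds the estimates were close to 0. With breed in the fit, the low-RFI minus high-RFI difference of bta-miR-378 was 0.015 ± 0.051 (SE) on the log2 scale, and those of bta-miR-378b, bta-miR-378c and bta-miR-378d were 0.067 ± 0.084, -0.046 ± 0.062 and 0.013 ± 0.12. None of the 4 passed an adjusted p-value of 0.05 by edgeR (0% of the 426 miRNAs tested did, and 13 had an unadjusted p-value under 0.05, none of them a member), nor did any by limma-voom or DESeq2. The interaction of RFI group with breed was passed by 0% of miRNAs, and the smallest unadjusted p among the members was 0.246 by edgeR. Nor did the ratios to bta-miR-378 differ between RFI groups, with exact permutation p-values of 0.212 to 0.985 over 9 comparisons.

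Within breeds, the counts of the members rose and fell together from steer to steer. Reads of bta-miR-378 counted for a smaller member could add to this, and that part was not tested. Pearson r of log2 CPM was above 0 in all 18 cases (6 pairs of members in 3 breeds, 20 steers each), from 0.284 to 0.871, and 16 had an adjusted permutation p under 0.05. By Spearman's rho, 11 did. The pair of bta-miR-378 and bta-miR-378c had r of 0.865 in Angus (rho 0.789), 0.871 in Charolais (rho 0.493) and 0.694 in KC (rho 0.662), with unadjusted permutation p-values for r of 1e-05, the smallest that 100000 resamples can give, 0.00017 and 0.00088. Those for rho were 7e-05, 0.0282 and 0.002, and the adjusted values were at most 0.00226 for r and 0.0468 for rho. For bta-miR-378 and bta-miR-378b, r was 0.776 in Angus (rho 0.541), 0.853 in Charolais (rho 0.716) and 0.746 in KC (rho 0.720), with adjusted permutation p-values of at most 0.000648 for r and 0.0317 for rho.

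These correlations were weaker under other scalings. CPM values of 1 library share its total, and after normalization by the trimmed mean of M values (TMM) r ran from 0.096 to 0.757 and 6 of the 18 passed. Those 6 were bta-miR-378 with bta-miR-378b and with bta-miR-378c in each of the 3 breeds, at r of 0.618 to 0.757. Without the 2 steers farthest from the median of the first member of a pair, 5 of the 18 passed. For Charolais, bta-miR-378 with bta-miR-378c then had r of 0.596 (adjusted permutation p = 0.0409), and for KC 0.463 (0.0957). In Angus, bta-miR-378 with bta-miR-378b had 0.489 (0.0836). The Pearson call in KC and that in Angus thus rested on those steers, while Spearman's rho over all 20 passed in both, as given above. The Pearson calls of bta-miR-378d with bta-miR-378 also rested on them in Charolais, at 0.121 without them, and in KC, at 0.309, and there rho over all 20 was 0.371 and 0.451, neither of which passed after adjustment (permutation, 0.128 and 0.0705). Leaving out the steers at the ends of a range also narrows that range, and its part in these lower values was not tested.

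**Figure D5:**
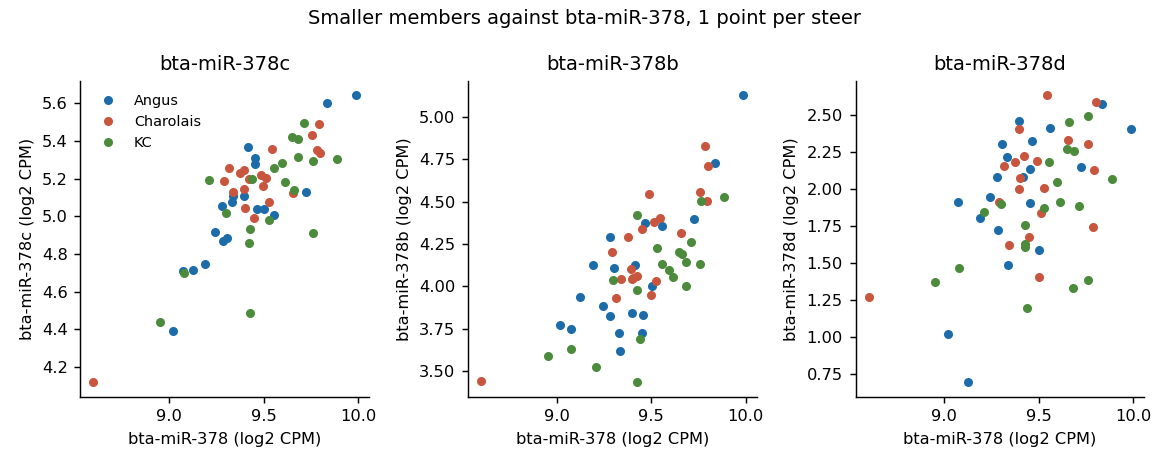
Log2 CPM of bta-miR-378c, bta-miR-378b and bta-miR-378d (vertical) against bta-miR-378 (horizontal), 1 point per steer coloured by breed; axes do not start at 0. Points rise together for bta-miR-378c and bta-miR-378b and scatter more for bta-miR-378d, and the lowest point on the left is the Charolais steer at 388 CPM.

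Among all miRNAs, bta-miR-378c and bta-miR-378b were the most like bta-miR-378, followed closely by bta-miR-103. With breed means taken out, and over 60 steers and the 442 other miRNAs tested, bta-miR-378c ranked first (r = 0.809) and bta-miR-378b second (r = 0.788), while bta-miR-378d ranked 49th (r = 0.548). After TMM they ranked 2nd, 1st and 27th, at 0.669, 0.682 and 0.315. The median r of the 439 miRNAs outside the family was 0.213 before TMM. The 5 most like bta-miR-378 outside the family were bta-miR-103 (r = 0.788, mean 1710 CPM), bta-miR-107 (r = 0.736, 622 CPM), bta-miR-210 (r = 0.728, 34.1 CPM), bta-miR-425-5p (r = 0.703, 136 CPM) and bta-miR-93 (r = 0.693, 414 CPM). Of these, bta-miR-103 and bta-miR-107 lie within genes of the PANK family, which encode the enzyme that begins coenzyme A synthesis, and bta-miR-210 is known for its response to low oxygen. After TMM, r was 0.556, 0.442, 0.458, 0.428 and 0.342 for the 5 in that order, and 3 of them were still among the first 5. The values share libraries and their totals, and members may share misassigned reads, which was not tested. They are given as a description.

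Other miRNAs hosted by metabolic genes, or known for liver lipid metabolism, were set beside the family. Of 8 listed miRNAs within metabolic host genes 6 were tested, and by adjusted p in the edgeR fit of breeds bta-miR-107 was lower in KC than in Angus by 0.12 ± 0.040 (SE) and bta-miR-483, which lies within the gene of insulin-like growth factor 2, was higher in KC than in Charolais by 0.38 ± 0.13. That is 1 of 6 in each of these pairs, beside 10.8% and 16.3% of all miRNAs, and 0 of 6 between Charolais and Angus, beside 1.35%. Between RFI groups 0 of 6 were called, beside 1.82% to 2.41% of all miRNAs within breeds. bta-miR-33b, which lies within the gene of the lipid regulator SREBF1, ranked 3 by level in that list at 38.2 CPM, after bta-miR-103 and bta-miR-107. The medians of the log2 differences of this list lay between -0.10 and 0.12 in the 7 comparisons, beside -0.018 to 0.027 over all miRNAs. Of 22 miRNAs of liver lipid metabolism, led in level by bta-miR-143, bta-miR-148a and bta-miR-26a, 1 was called between KC and Angus, beside 10.8% of all miRNAs. Between RFI groups in KC 1 of 22 was called, beside 1.82%. In the other comparisons 0 of 22 were called, beside 16.3% for KC and Charolais, 1.35% for Charolais and Angus, and 0% to 2.41% for RFI. bta-miR-130a was lower in KC than in Angus by 0.23 ± 0.068, and bta-miR-223 was higher in low-RFI than in high-RFI KC steers by 0.69 ± 0.21 at an unadjusted p of 0.00504 and an adjusted p of 0.646 by edgeR. The medians of this list lay between -0.0095 and 0.055.

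Sires did not separate the members detectably. Over steers whose sire had at least 2 sons in the breed (18 in Angus, 20 in Charolais and 11 in KC), sire accounted for 1.35% to 35.3% of the variance of log2 CPM. None of the 12 permutation tests (100000 resamples) passed after adjustment or at an unadjusted p under 0.05, and the smallest p was 0.0734, for bta-miR-378b between the 2 KC sires, whose means were 3.72 and 4.14 log2 CPM.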

How the data were processed

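Small RNA of 60 steer livers was measured, 1 library per steer. The authors trimmed reads with cutadapt 1.16, kept those of 15 to 28 bases, removed other small RNAs and counted with miRDeep2 and Bowtie 1.1.1 against known bovine miRNAs and UMD3.1, and deposited raw counts for each pair of miRNA and precursor. Breed and RFI group came from the labels. Counts over several precursors were averaged and rounded. Fits used edgeR 4.0.16 (TMM, quasi-likelihood, R 4.3.3) on miRNAs that reached 1 CPM in 6 or more of the steers fitted, with Benjamini-Hochberg adjustment. Ratios used a pseudocount of 0.5 counts, with intervals from the normal approximation. limma 3.58.1, DESeq2 1.42.0 and Python 3.11.15 with NumPy 2.4.6 served for the rest. The fits were tested on simulated data. Named outside the family are the 5 miRNAs whose breed-centred log2 CPM correlated best with bta-miR-378, the 3 most abundant of each list discussed and any list member called, and bta-miR-206 and bta-miR-208a, chosen after their values were seen. The members and lists were chosen with earlier results of these data known. Alternatives covered normalization, filter, test, precursors, sire, title number, depth and choice of steers. Same-numbered steers of different breeds did not pair (median correlation of deviations 0.011 over 60 pairs, above 0.1 in 9). Predicted miRNAs were not analysed here.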

Additional observations from a re-analysis of the deposited data

Results flagged for a closer look

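One KC steer was set apart from its group by the gap to its neighbours. In the fifth high-RFI KC steer bta-miR-378 stood at 592 CPM (3210 counts), against 774 to 838 CPM in the other 5, so that on the log2 scale its gap to the nearest steer was 0.771 of the range of the group. bta-miR-378b in the same steer stood at 11.4 CPM (62 counts), against 15.9 to 19.1 CPM, with a gap of 0.643 of the range. Both exceed Dixon's 95% critical value for 6 samples. Chance flags about 1 group in 20, and 42 groups were examined, of which 2 were flagged, about as many as chance gives. Both flags are from 1 library, and the levels of these 2 members were correlated in KC (Pearson r = 0.746). The library total of 5426209 counts was within the range of its breed. Without this steer the low-RFI minus high-RFI difference in KC was -0.125 for bta-miR-378 (adjusted p = 0.982, edgeR) and -0.075 for bta-miR-378b, in place of -0.053 and 0.015, and no member was called.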

How the results depend on the processing

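No alternative called a member between RFI groups, within or across breeds. Between breeds, DESeq2 and the 36 labelled steers called 1 member comparison of 12 each (bta-miR-378b and bta-miR-378, as given above), and the others called 0. Of the 9 breed and 9 RFI ratios, 1 passed, a breed ratio. The settings added later were run on the 9 breed ratios only: 3 passed with the library total as a term, 2 without the KC sire of 8 steers, 2 without the fifth high-RFI KC steer (bta-miR-378c also passed for KC against Charolais, at -0.15) and 0 in the 24 unlabelled steers, where that of bta-miR-378b was -0.24. Of the correlations, 6 passed after TMM and 5 without the farthest steers. The causes were not tested. The title number as a replicate block called 0 members, and bta-miR-378b between KC and Charolais was then -0.22; the block called 3, 49 and 75 miRNAs in the pairs Charolais and Angus, KC and Angus, KC and Charolais, against 6, 48 and 72. At least 10 counts in every steer left bta-miR-378d untested in most fits.

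No value called over all 60 steers changed sign, and bta-miR-378 between KC and Angus, called in the labelled steers, had the other sign in the unlabelled ones. Between KC and Charolais bta-miR-378 was -1.9e-05 with DESeq2 size factors, -3.9e-05 with DESeq2, -0.00036 with the highest precursor, -0.023 in labelled steers and -0.00076 or 0.026 without the seventh unlabelled Charolais or the fifth high-RFI KC steer, the only single steers left out of breed comparisons. For bta-miR-378b between KC and Angus it was 0.082 in labelled steers and 0.16 with the library total, and for bta-miR-378d 0.0056 without the KC sire of 8 steers. The 24 unlabelled steers gave -0.072 for bta-miR-378 and -0.050 for bta-miR-378b between Charolais and Angus, and -0.062 for bta-miR-378 and -0.24 for bta-miR-378c between KC and Angus. For RFI in KC, bta-miR-378b was -0.010 with DESeq2 size factors, -0.0090 with DESeq2, -0.012 with summed precursors, -0.019 in one fit of 36 steers and -0.075 to 0.064 on leaving out single steers. For RFI in Angus, bta-miR-378c was -0.0016 without a filter, -0.00039 with the highest precursor and -0.048 to 0.077 on leaving out single steers. With sire as a fixed block bta-miR-378d was 0.20 for Angus, -0.39 for Charolais and -0.022 for KC, and -0.048 to 0.18 in KC on leaving out single steers. bta-miR-378b in Charolais was -0.0091 with the library total. Across breeds, bta-miR-378c was 0.017 without TMM and 0.050 without KC steers, and bta-miR-378d was -0.0035 with sire as a random effect and -0.026 without Charolais steers. The ratio of bta-miR-378d between Charolais and Angus was -0.0064 with a pseudocount of 1, -0.0077 with the library total, -0.16 in labelled steers and -0.00059 or 0.0046 without the same single steers.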

Other observations

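The level of bta-miR-378 moved with several cell type marker lists. With breed means taken out, over 60 steers, Pearson r of its log2 CPM with the log2 summed CPM of the list was 0.619 for the 2 endothelial miRNAs, 0.604 for the 5 leukocyte miRNAs, 0.349 for the 5 hepatocyte miRNAs, 0.241 for the 7 muscle miRNAs, 0.137 for the 5 biliary miRNAs, -0.15 for the 3 erythroid miRNAs and -0.55 for the 4 stellate and mesenchymal miRNAs. The last list was led by bta-miR-143, whose mean of 169522 CPM was the second largest of the markers after bta-miR-192 at 233739 CPM. The endothelial and leukocyte sums were also mostly 1 miRNA each, bta-miR-126-5p (mean 15417 CPM) and bta-miR-142-5p (3483 CPM). For the 439 single miRNAs outside the family the median r with bta-miR-378 was 0.213. All of these r are from CPM before TMM. Summed levels of the leukocyte list ran from 1931 to 5139 CPM in Angus, 2205 to 5100 CPM in Charolais and 2596 to 5388 CPM in KC. CPM values of 1 library share its total, so that a miRNA with a large share lowers the CPM of the others, and the part of cell composition in the spread of bta-miR-378 was not tested. The Pearson r with the log2 library total was -0.40 for bta-miR-378 and -0.51 for bta-miR-378b, against -0.28 for bta-miR-378c and -0.095 for bta-miR-378d.

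Single markers were called in 4 of the 7 lists. In the edgeR fit of breeds bta-miR-885, of the hepatocyte list, was higher in KC than in Angus by 0.57 ± 0.12 (SE) on the log2 scale, as was bta-miR-155, of the leukocyte list, by 0.49 ± 0.14 (1 of 5 tested in each list, beside 10.8% of all miRNAs), and bta-miR-199a-5p, of the stellate and mesenchymal list, was higher in KC than in Charolais by 0.20 ± 0.065 (1 of 4, beside 16.3%). Between RFI groups bta-miR-133a, of the muscle list, was higher in low-RFI Charolais steers by 0.62 ± 0.23 at an adjusted p of 0.752 by edgeR (1 of 3, beside 1.88%), and bta-miR-223, which is also in the leukocyte list, was given above (1 of 5, beside 1.82%). Of the 3 erythroid, 5 biliary and 2 endothelial markers 0 were called in any of the 7 comparisons, beside 0% to 16.3% of all miRNAs.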
